A study of Homo sapiens with 7 samples.

Results

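FTO and ALKBH5 are the genes of the 2 known demethylases, or erasers, of N6-methyladenosine (m6A) in mRNA. Their own transcripts were followed through 4 lists of m6A peaks from HEK-293T, a human embryonic kidney cell line. The genes were taken by name, and their peaks by the Ensembl ID in each list (ENSG00000140718 for FTO, ENSG00000091542 for ALKBH5), out of 13566 gene IDs with a peak in any list. Both genes were listed by both methods. FTO had peaks in 3 of the 4 lists and ALKBH5 in all 4, for 4 and 8 peaks over the lists.

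The series sets a chemical method, m6A-ORL, against an antibody method, MeRIP-seq. In m6A-ORL, fragments of RNA are treated with NO/O2, then TDO, then a biotin probe named BA, captured on streptavidin and eluted with DTT. In MeRIP-seq, fragments are captured with an antibody to m6A. The cells are one line grown in the same medium throughout. Sample titles call the captured libraries treated and the inputs control. These words were read as capture and input, not as a treatment of the cells. Each method has 2 captured libraries with a peak list. Per the labels, m6A-ORL replicate 1 was made from total RNA and m6A-ORL replicate 2 and both MeRIP replicates from polyA RNA, although the protocol text they share describes oligo(dT) selection. RNA type and replicate therefore cannot be told apart within m6A-ORL. No label says that replicates came from separate cultures, so the spread between them may be technical. The 3 input libraries were not analysed here.

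m6A is placed on nascent mRNA by a methyltransferase complex built around METTL3 and METTL14, mostly at adenosines in short motifs with the core GGAC, and is bound by readers such as the YTH proteins. FTO and ALKBH5 remove it. Both belong to the AlkB family of iron- and alpha-ketoglutarate-dependent dioxygenases. FTO also acts on the cap-adjacent base m6Am and on methylated bases of small RNAs, and its gene is known for intronic variants linked to body weight. ALKBH5 is a mainly nuclear enzyme known for its need in male germ cells of the mouse.

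The ALKBH5 start is printed here because the second block of a peak begins at that base in both antibody lists. ALKBH5 occupies hg38 chromosome 17, 18183828 to 18209954, plus strand, in the RefSeq gene table (GRCh38.p14), a span of 26127 nt. The 250 bases before this start (chr17:18183578-18183827) lie in the gap of a MeRIP peak and hold no peak base in any list. The 30 bases from chr17:18183843-18183872 lie within that peak in both MeRIP lists. They are labelled peak start but begin inside its second block, which starts at 18183828, while the peak itself starts at 18183227. Both stretches are RefSeq sequence, plus strand, 5′ to 3′, with GGAC in capitals.
ALKBH5 upstream: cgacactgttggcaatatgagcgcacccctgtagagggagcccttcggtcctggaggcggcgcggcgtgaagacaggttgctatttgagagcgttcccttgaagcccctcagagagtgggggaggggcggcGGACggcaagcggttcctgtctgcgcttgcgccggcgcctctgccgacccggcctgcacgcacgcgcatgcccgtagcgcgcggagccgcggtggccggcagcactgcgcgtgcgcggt
ALKBH5 peak start: gagcggcgctggcGGACgtcgggctggctg

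The GGAC inside the peak begins at base 18183856, 28 nt after the RefSeq start. On the same strand, the 50 bases after the start hold 1 GGAC, and GTCC, its reverse complement, is not among them. GGAC was found on the sense strand in 18.9% of the 35116 RefSeq start windows in those 50 bases, GTCC in 17.6% and either in 33.5%, so the match is a common one. The window of 300 bases was 71.0% G or C at ALKBH5 and 60.0% at FTO, with 39 and 22 CpG. The median over all windows was 58.7% G or C and 14 CpG. The FTO window (chr16:53703906-53704205) is set on a transcript start 193 nt inside the RefSeq gene start used for FTO distances, and the ALKBH5 window on the gene start itself. The FTO window held no peak base in any list. Peak sequences further inside the genes were not read, since no genome was used here.

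ALKBH5 had 1 peak in the total-RNA m6A-ORL library and 3 in the polyA m6A-ORL library, against 1 and 3 in MeRIP replicates 1 and 2. The low and the high count each occurred once per method, so the groups overlap fully. Means were 2 ± 1.41 peaks for m6A-ORL and 2 ± 1.41 for MeRIP (SD, n = 2 each), with p = 1 by an exact two-sided permutation test. Peaks in both lists of a method were found for 19.3% of gene IDs by m6A-ORL and for 65.9% by MeRIP. ALKBH5 belonged to the 15.8% with a peak in all 4 lists.

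FTO had 2 peaks in the total-RNA m6A-ORL library and none in the polyA m6A-ORL library, against 1 and 1 in MeRIP replicates 1 and 2. The m6A-ORL values thus lie on either side of the MeRIP values, with means of 1 ± 1.41 and 1 ± 0 peaks (SD, n = 2 each), for which the exact permutation gave a two-sided p = 1. The same presence in 3 lists without the polyA m6A-ORL library was shared by 16.9% of the gene IDs. A gene missing from a list had no peak past the authors' threshold. Read depth is unknown, so the level of FTO RNA or of m6A in that library cannot be read from it. In these bulk lists, fewer methylated transcripts and less RNA of the gene cannot be told apart.

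**Figure D1:**
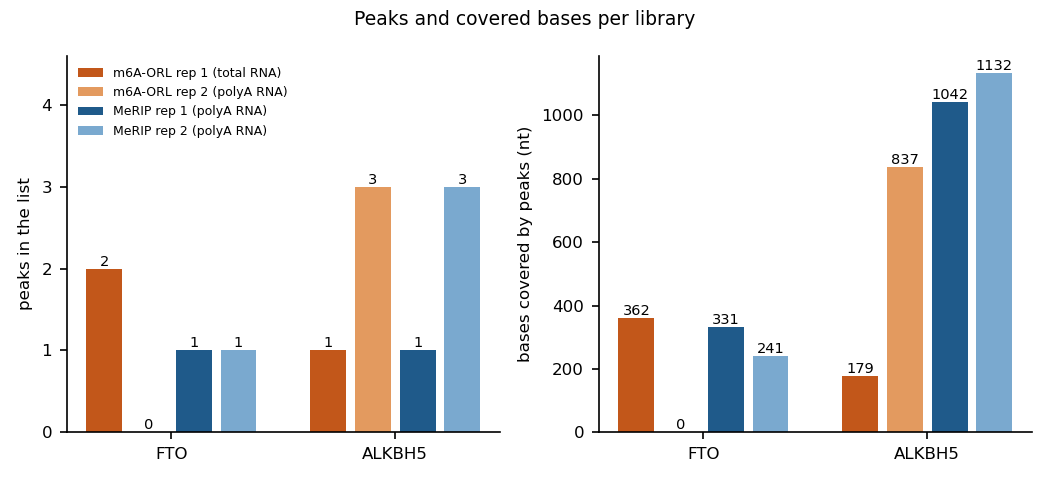
Peaks per gene (left axis, number in the list) and bases covered by those peaks (right axis, nt) for FTO and ALKBH5, with 1 bar per library. FTO is at 2, 0, 1 and 1 peaks and ALKBH5 at 1, 3, 1 and 3, while ALKBH5 covered bases reach 1042 and 1132 nt in the MeRIP libraries.

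ALKBH5 peaks covered 179 nt in the total-RNA m6A-ORL library and 837 nt in the polyA m6A-ORL library, against 1042 and 1132 nt in the MeRIP replicates. All m6A-ORL values lie below all MeRIP values. Means were 508 ± 465 nt for m6A-ORL and 1087 ± 63.6 nt for MeRIP (SD, n = 2 each), a difference of -579 nt. The exact two-sided permutation p was 0.333, which is the smallest that 4 libraries allow. Within polyA RNA, the single m6A-ORL value of 837 nt lay 250 nt below the MeRIP mean. The lists as a whole differed in the same direction. The median bases covered per gene ID were 177 and 180 nt in m6A-ORL, against 422 and 421 nt in MeRIP. Median peak size differed too, with 142 and 149 nt in m6A-ORL and 211 nt in both MeRIP lists, and the part of these list-wide differences in the ALKBH5 value was not tested.

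FTO peaks covered 362 nt in the total-RNA m6A-ORL library and 0 nt in the polyA m6A-ORL library, against 331 and 241 nt in the MeRIP replicates. The groups overlap. Means were 181 ± 256 nt for m6A-ORL and 286 ± 63.6 nt for MeRIP (SD, n = 2 each), a difference of -105 nt (exact two-sided permutation p = 1). The sign rests on the polyA m6A-ORL library, since the difference was 76 nt without it.

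Set among all gene IDs of the same list, the erasers held different places. ALKBH5 covered more bases than 94.6% of IDs in the polyA m6A-ORL list and than 50.3% in the total-RNA list, and more than 78.9% and 81.7% in the MeRIP lists. FTO covered more than 81.5% of IDs in the total-RNA m6A-ORL list, against 40.8% and 30.8% in the MeRIP lists. FTO was thus above its list's median in the total-RNA m6A-ORL library and below it in both antibody libraries. The 3 ALKBH5 peaks were matched or exceeded by 16.5% of IDs in the polyA m6A-ORL list and by 27.2% in the list of MeRIP replicate 2. The 2 FTO peaks were matched or exceeded by 31.0% of IDs in the total-RNA list.

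Along ALKBH5, the leading peak sat at the 5′ end. In the total-RNA m6A-ORL library it ran from 18184652 to 18184830, 824 to 1002 nt after the RefSeq start, and covered 179 nt. The polyA m6A-ORL library had 2 peaks there, from 18183967 to 18184146 (180 nt) and from 18184354 to 18184890 (537 nt), separated by 207 nt. In MeRIP replicate 1 a single peak of 1042 nt was made of a block of 39 nt (18183227 to 18183265) and a block of 1003 nt (18183828 to 18184830). MeRIP replicate 2 had the same 39 nt block with a second block of 973 nt (18183828 to 18184800), for 1012 nt in all. The chemical lists therefore show 1 peak of 179 nt in total RNA and a pair of peaks in polyA RNA. The antibody lists show a single, broader peak there.

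**Figure D2:**
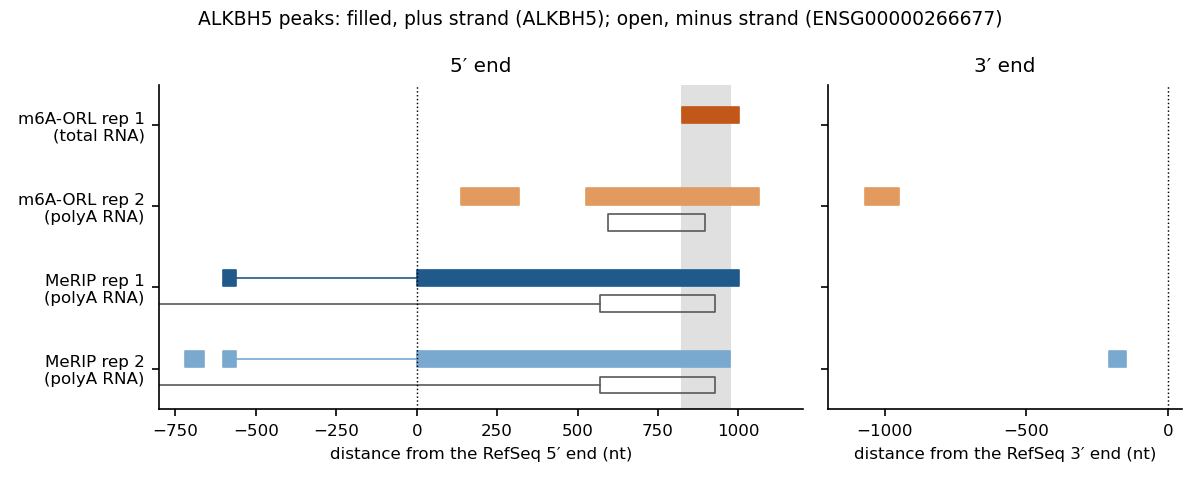
ALKBH5 peaks in each library by distance in nt from the RefSeq 5′ end (left panel) and 3′ end (right panel). Filled bars are plus-strand peaks of ALKBH5, open bars are minus-strand peaks of ENSG00000266677, lines join blocks of a peak, and the grey band marks the 149 nt covered in all 4 lists.

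Bases 18184652 to 18184800, a stretch of 149 nt starting 824 nt after the RefSeq start, were covered in all 4 lists. In both MeRIP lists, the part from 18184652 to 18184753 also lay under a minus-strand peak, described below. In the polyA m6A-ORL list, the part from 18184652 to 18184723 did so. Of the 2138 gene IDs with a peak in all 4 lists, 39.4% had any base covered in all 4. The total-RNA m6A-ORL peak lay 100% within the peak of MeRIP replicate 1, and 83.2% of its bases lay in that of replicate 2. The broader polyA m6A-ORL peak contained the whole total-RNA peak, and it shared 477 and 447 of its 537 nt with the MeRIP replicates. The narrower polyA peak, 139 to 318 nt after the start, lay wholly inside both MeRIP peaks and 505 nt away from the total-RNA peak. Over all peaks, 13.8% of the total-RNA list and 19.6% of the polyA m6A-ORL list were overlapped by the other, so a position shared by both chemical libraries was the less common case.

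The second block of both MeRIP peaks began at base 18183828, the RefSeq start of ALKBH5 itself. An inner block that begins at a RefSeq gene start was found in 1.20% of multi-block peaks of MeRIP replicate 1 and 1.16% of replicate 2. With that start at 0, the short first block ran from -601 to -563 nt. Both blocks carry the ALKBH5 ID, so the annotation used for the lists gave the gene sequence upstream of the RefSeq span, and 92.6% of all bases under ALKBH5 peaks were inside it. MeRIP replicate 2 had a further peak of 60 nt wholly upstream (18183108 to 18183167), 59 nt before the 39 nt block.

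At the 3′ end of ALKBH5 the methods gave different positions. The polyA m6A-ORL library had a peak of 120 nt from 18208883 to 18209002, ending 952 nt before the RefSeq 3′ end. MeRIP replicate 2 had a peak of 60 nt from 18209746 to 18209805, ending 149 nt before it. The peaks were 743 nt apart and did not overlap, and neither had a counterpart in the other library of its method. In named genes, the 3′-most 10% of the span held 32.3% and 28.2% of m6A-ORL peaks and 36.6% and 36.5% of MeRIP peaks. The 5′-most 10%, where the leading ALKBH5 peak lies, held 14.9% and 18.8% of m6A-ORL peaks and 14.5% and 14.9% of MeRIP peaks.

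The broad ALKBH5 peak coincided with peaks on the opposite strand. The ID ENSG00000266677, which took no name by position, had a minus-strand peak of 301 nt (18184423 to 18184723) in the polyA m6A-ORL library, all of it over the ALKBH5 peak. In both MeRIP lists it had a peak of 391 nt with the same coordinates, 357 nt of which (18184397 to 18184753) lay within the ALKBH5 peak and 34 nt (18178332 to 18178365) upstream of the gene. The total-RNA m6A-ORL library had none. Peaks with an opposite-strand peak in the same list made up 7.49% and 7.05% of the m6A-ORL lists, and 11.1% and 11.0% of the MeRIP lists. The adapter ligation that the labels describe for chemically treated RNA keeps the strand, but no source used here says whether mapping or calling used it. Reads of ALKBH5 and of its antisense partner may therefore be mixed over these 357 nt, and this was not tested. The plus-strand peaks of the MeRIP lists run on to both sides of the antisense block.

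FTO occupies hg38 chromosome 16, 53703963 to 54121941, plus strand, a span of 417979 nt that is longer than that of 98.0% of the 8784 named protein-coding genes with peaks. The peaks of all lists together covered 512 nt of it. One position carried a peak in 3 lists, beginning 122143 nt after the RefSeq start in the total-RNA m6A-ORL list. The total-RNA m6A-ORL peak ran from 53826106 to 53826286 (181 nt). The peak of MeRIP replicate 1 ran from 53826106 to 53826436 (331 nt) and that of replicate 2 from 53826196 to 53826436 (241 nt). Bases 53826196 to 53826286, a stretch of 91 nt starting 122233 nt after the RefSeq start, were covered in all 3. Of the 2287 gene IDs present in these 3 lists and absent from the polyA m6A-ORL list, 76.0% had such a common base.

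**Figure D3:**
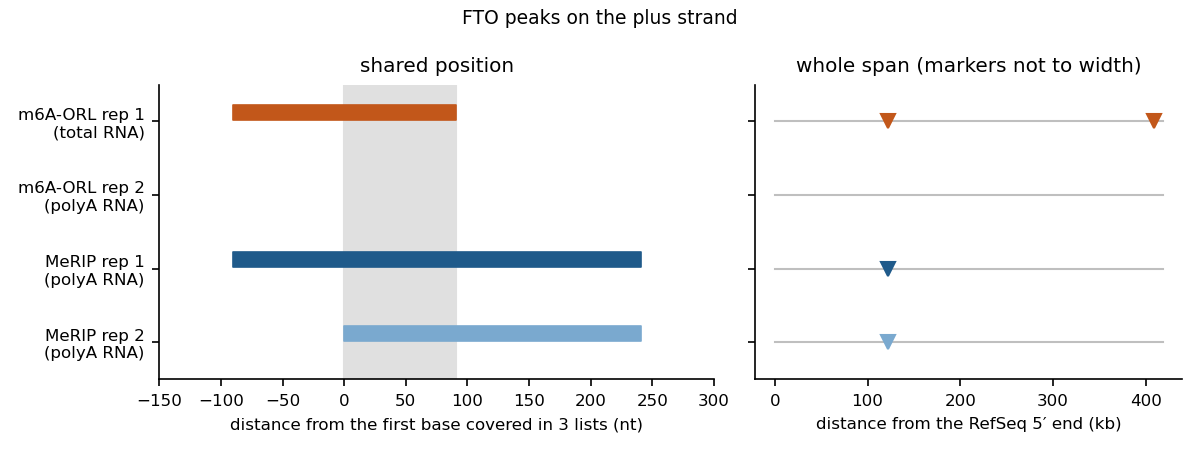
FTO peaks in each library, by distance in nt from the first base covered in 3 lists (left panel, grey band of 91 nt) and along the whole gene in kb (right panel, triangles at peak middles, grey line for the span). The total-RNA m6A-ORL library has the shared peak and a second one near the 3′ end, and the polyA m6A-ORL library has none.

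The shared FTO peak began at the same base in the total-RNA m6A-ORL list and MeRIP replicate 1, and ended at the same base in both MeRIP replicates. All 181 nt of the chemical peak lay inside the peak of MeRIP replicate 1. It covered 54.7% of that peak and 37.8% of the peak of replicate 2. A start or end in common was seen for 18.5% of total-RNA m6A-ORL peaks that overlapped MeRIP replicate 1, and for 67.2% of MeRIP replicate 1 peaks that overlapped replicate 2. Most single-block peaks, 87.2% to 96.0% by list, were within 1 nt of a multiple of 30 nt in size. Such edges locate a peak to a window rather than to a base.

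The second FTO peak of the total-RNA m6A-ORL library ran from 54112188 to 54112368 (181 nt), ending 9573 nt before the RefSeq 3′ end and 285901 nt beyond the shared peak. No other list had a peak at that position. Its middle lay at 97.7% of the span, and that of the shared peak at 29.2% to 29.3%. The 10% of the span from 20% to 30%, the third such step from the 5′ end, held 4.13% to 4.27% of peaks in named genes, depending on the list. The leading FTO peak thus lay in a sparsely used stretch, and the steps on either side were much alike (4.27% to 4.89%). The second FTO peak lay in the 3′-most 10%, which held the most peaks. The leading ALKBH5 peak lay in the stretch that held the most after that one. These are steps of the genomic span, and exon positions were not used.

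By overlap, both methods met at the leading peak of each gene, for FTO through the total-RNA m6A-ORL library only. The polyA m6A-ORL library had no FTO peak. The second FTO peak, and the ALKBH5 peaks at the 3′ end and upstream, had no partner in the other method. Of the 4 ALKBH5 peaks of m6A-ORL, 3 were overlapped by a MeRIP peak (75.0%, exact 95% interval 19.4 to 99.4), and of the 2 FTO peaks, 1 was. The share over all m6A-ORL peaks was 51.9%. In the other direction, 2 of the 4 ALKBH5 peaks of MeRIP (50%, exact 95% interval 6.76 to 93.2) and both FTO peaks were overlapped by an m6A-ORL peak, and the share over all MeRIP peaks was 33.2%. When 50% of the peak had to be covered by 1 m6A-ORL peak, this held for none of these ALKBH5 peaks and for 50% of the FTO peaks. Bases under the 2 polyA m6A-ORL peaks within the same MeRIP peak were not added together. The intervals cover counting error only and include the shares over all peaks wherever given. With so few peaks no departure from the lists as a whole was detectable. The 3 MeRIP and m6A-ORL peaks at ALKBH5 without a partner, and the second FTO peak, were each listed in 1 library only.

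The authors' score, read as a p-value or q-value because of its range, ranked the erasers differently within each list. In the polyA m6A-ORL list the ALKBH5 peaks scored 3.6e-09, 3.2e-08 and 2.6e-06, at 14.3%, 18.4% and 35.4% of 7661 peaks counted from the lowest score. In the total-RNA m6A-ORL list the ALKBH5 peak scored 0.00032, at 77.1% of 11022 peaks. The leading ALKBH5 peak scored 4e-93 in MeRIP replicate 1 and 3.2e-87 in replicate 2, ranks 1482 of 20760 and 1627 of 20216 peaks. The broad ALKBH5 peak was therefore among the better-scored peaks of the 3 polyA libraries, and its total-RNA counterpart among the weaker ones. It was also among the wider peaks, since 2.09% of that m6A-ORL list covered 537 nt or more, and 4.51% and 4.86% of the MeRIP lists covered as many bases as the leading peak there.

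FTO had no score in the polyA m6A-ORL list. Its total-RNA m6A-ORL peaks scored 5.8e-07 for the shared position and 3.3e-05 for the second, at 28.4% and 49.7% of the list. The MeRIP peaks scored 2.5e-12 in replicate 1 and 3.3e-08 in replicate 2, at 39.7% and 51.1%. FTO peaks thus ranked between 28.4% and 51.1% of the lists that held them. The small extra ALKBH5 peaks of MeRIP replicate 2 scored 0.00013 at the 3′ end and 0.0019 upstream, at 77.6% and 95.7% of that list. Within m6A-ORL, effects of RNA type and of replicate on these ranks cannot be told apart.

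**Figure D4:**
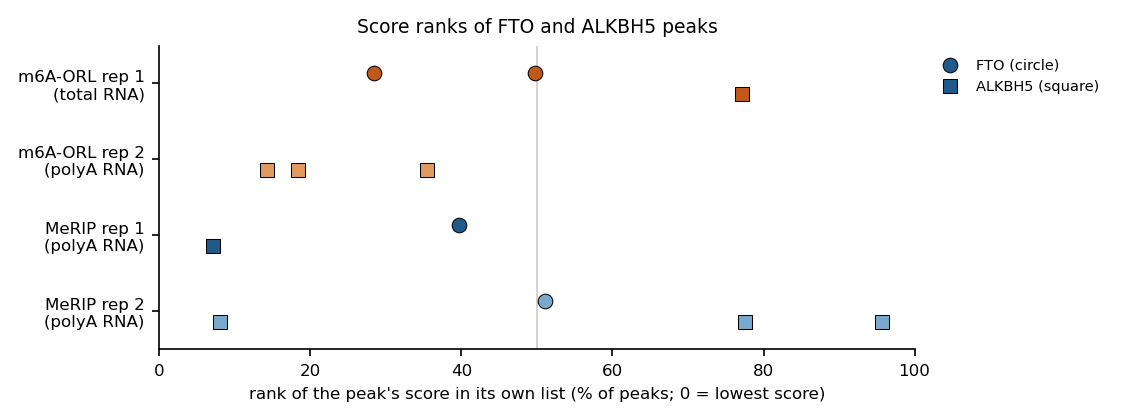
Rank of each FTO peak (circles) and ALKBH5 peak (squares) by the authors' score within its own list, as percent of the peaks of that list (horizontal axis, lowest score at 0), with 1 row per library. The leading ALKBH5 peak is at 77.1% in the total-RNA m6A-ORL list and at 7.14% and 8.05% in the MeRIP lists, and FTO peaks lie between 28.4% and 51.1%.

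With each list reduced to its 7661 best-scored peaks, the length of the shortest, FTO kept 2 peaks in the total-RNA m6A-ORL list and had none in the other 3. ALKBH5 then had 3 peaks in the polyA m6A-ORL list, none in the total-RNA list and 1 in each MeRIP list. At a score of at most 1e-05, FTO had 1 and 0 peaks in the m6A-ORL lists, against 1 and 1 in the MeRIP lists. ALKBH5 had 0 and 3 peaks in the m6A-ORL lists at that score, against 1 and 1 in the MeRIP lists. The presence of FTO in the antibody lists thus depended on how far down those longer lists were read, and that of ALKBH5 did not.

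The other AlkB genes gave the setting for the erasers. Of the 9 family members, 8 had a named peak. Peaks were in both m6A-ORL lists for 3 of them (ALKBH2, ALKBH4 and ALKBH5), and these were also in both MeRIP lists. Both MeRIP lists held 7, all but ALKBH6 among the named ones. Of all gene IDs, 19.3% had a peak in both m6A-ORL lists, 65.9% in both MeRIP lists and 15.8% in all 4. ALKBH2, a DNA repair enzyme, had 1 and 1 peaks by m6A-ORL, against 3 and 2 by MeRIP. ALKBH4 had 1 and 2, against 2 and 1. ALKBH8, which modifies the wobble base of tRNA, had 1 and 0, against 1 and 1, like FTO without a peak in the polyA m6A-ORL list. ALKBH7, a mitochondrial member, had 0 and 1, against 1 and 1. ALKBH1 had no m6A-ORL peak, against 1 and 1 MeRIP peaks, and ALKBH6 had 1 peak in the polyA m6A-ORL list alone. ALKBH3 took no name by position, and its span held 1 same-strand peak in the total-RNA m6A-ORL list and 1 in MeRIP replicate 1.

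**Figure D5:**
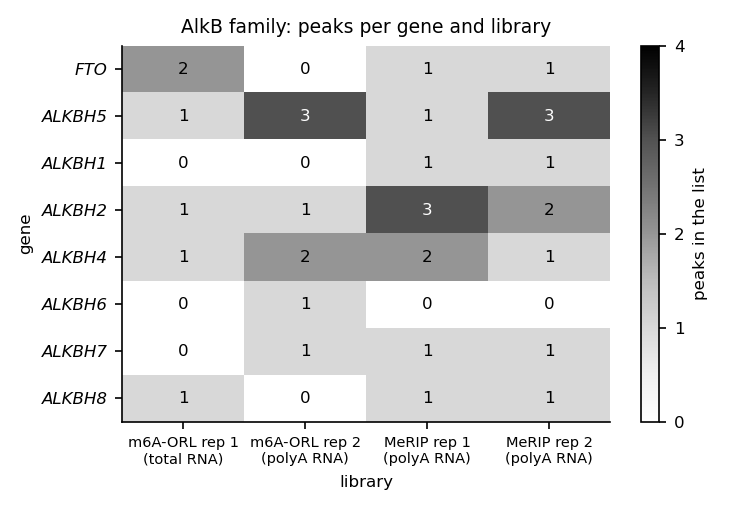
Number of peaks (cell value and grey scale) for the 8 AlkB genes with a named peak, by library. ALKBH5 has the counts 1, 3, 1 and 3 and FTO 2, 0, 1 and 1, and ALKBH2, ALKBH4 and ALKBH5 have a value above 0 in every column.

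Among writers of m6A, 8 of 9 genes had a named peak, 3 in both m6A-ORL lists and all 8 in both MeRIP lists. Among readers, 8 of 9 had one, 4 in both m6A-ORL lists and all 8 in both MeRIP lists. The unnamed writer WTAP and reader HNRNPA2B1 had peaks in their spans in all 4 lists, and by span 4 writers and 6 readers were in both m6A-ORL lists. The total-RNA m6A-ORL library listed 7 named writers and 5 named readers, and the polyA one 3 and 6. Over all gene IDs these libraries listed 53.1% and 33.1%. METTL3, the catalytic writer, had no m6A-ORL peak against 1 and 1 MeRIP peaks. The presence of FTO, in the total-RNA m6A-ORL list and both MeRIP lists and not in the polyA m6A-ORL list, was shared by 4 writers (METTL14, VIRMA, CBLL1 and METTL16) and the reader YTHDF3. These counts stand beside the shares of all gene IDs, 19.3% for both m6A-ORL lists and 65.9% for both MeRIP lists. The presence of FTO was shared by 16.9% of all gene IDs.

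By counts over the 4 libraries, 118 of the 10620 other named genes (1.11%) had exactly the FTO pattern of 2, 0, 1 and 1 peaks. The nearest in covered bases, by Euclidean distance of log2(bases + 1) over the 4 libraries, were ERLIN1 (0.228), HAUS6 (0.238), ZBTB44 (0.288), DYNLL1 (0.352) and VEZF1 (0.354). No other named gene had the ALKBH5 pattern of 1, 3, 1 and 3. The nearest, at a count distance of 1, were NRARP, ARID3A, HNRNPDL, PGAM5 and CLK2. That pattern includes the 60 nt peak of MeRIP replicate 2 wholly upstream of the RefSeq span, at rank 95.7% of its list. By span the ALKBH5 counts were 1, 3, 1 and 2, which are the counts by ID of HNRNPDL, PGAM5 and CLK2. NRARP was close in covered bases too, with 180 and 923 nt by m6A-ORL against 1010 and 1338 nt by MeRIP (log2 distance 0.283), while the distance was 1.49 for ARID3A and 2.84 for CLK2.

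Of 11 marker genes of other cell types, 10 had no named peak, among them ALB, HBB and PTPRC. The islet gene INS, also without a name, had 1 peak in its span in the total-RNA m6A-ORL list. The astrocyte gene GFAP had no m6A-ORL peak against 2 and 2 MeRIP peaks under its ID. The GFAP span held 6 and 6 MeRIP peaks, so other peaks there carry other IDs. A peak list does not give expression, so this does not measure the purity of the line.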

How the data were processed

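Peaks were read from 4 deposited BED lists of 12 columns, 1 per captured library. Per the file headers, each line holds the position, strand, blocks, Ensembl ID and a score. The score that the authors deposited lies between 0 and 0.0081 and was read as a p-value or q-value of each peak, and it served only to rank or filter within a list. Per the submitters' processing notes, Trim Galore, STAR, HOMER and hg38 were used, with no role or version stated. The peak caller, its threshold and its input library: not given in the sources used here. Read depth is unknown, and precision is limited by the 11022 and 7661 peaks of m6A-ORL and the 20760 and 20216 of MeRIP, after removal of 2, 1, 4 and 3 duplicate lines.

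Peaks overlapped when their blocks shared at least 1 nt on the same strand. IDs were named by position in the RefSeq table (GRCh38.p14), which matched 0 IDs directly. At least 90% of an ID's bases had to lie in 1 gene span, on that gene's strand where the RefSeq start table gives one, with a 3-fold excess settling conflicts. This named 10621 of 13566 IDs (78.3%). The ID of each eraser took its own name. For counts and covered bases, the method label was permuted exactly over the 4 libraries (3 ways, two-sided, smallest p = 0.333). FTO and ALKBH5 were named whatever their values, and the gene lists and the members were chosen with earlier results of these data known. The nearest genes were the 5 closest by peak counts and then by covered bases. Alternatives were a score of at most 1e-05, lists of equal length, span in place of ID, 50% overlap, each library left out and the replicate number as a block. Overlap and permutation code was tested on simulated data. Python 3.11.15, pandas 2.3.3, numpy 2.4.6 and SciPy 1.17.1 were used.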

Additional observations from a re-analysis of the deposited data

How the results depend on the processing

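Of 62 recomputed values, 41 kept their direction or stayed within the counting interval, 19 moved and 2 reversed. The cause of the changes was not tested. A replicate block cannot change a difference of means, so its values were the same by construction. Counting intervals were wide, from 15.8% to 100% for FTO MeRIP peaks, where a share of 50% counted as kept. The 41 is therefore not a measure of robustness. Several alternatives use fewer peaks or libraries, while the 50% overlap and the replicate block use the same ones. The covered-base difference (m6A-ORL minus MeRIP) was negative for ALKBH5 under every alternative, from -908 to -250 nt with 1 library left out. For FTO it was 181 nt at equal list length, and ran from -286 to 76 nt with 1 library left out, so it has no stable sign. The peak-count differences, both 0 as reported, became -0.5 for FTO at a score of at most 1e-05 and 1 at equal list length. For ALKBH5 the difference became 0.5 with that score, with equal length and with span in place of ID. With 1 library left out, both ran from -1 to 1. The overlapped share of FTO m6A-ORL peaks was 100% at that score and 0% at equal length. That of ALKBH5 m6A-ORL peaks ran from 66.67% to 100% with 1 library left out. For MeRIP peaks it ran from 0% to 100% for FTO (0% without the total-RNA m6A-ORL library) and from 33.33% to 100% for ALKBH5. It was 100% for ALKBH5 at that score and at equal length. It was 0% when 50% of the peak had to be covered by 1 m6A-ORL peak, which gave 50% for FTO. No FTO share could be given for MeRIP at equal length, or for m6A-ORL without its total-RNA library, since no peak was left. With the replicate number as a block, the ALKBH5 covered-base difference is -579 nt by construction. Its exact permutation p was 0.5, the smallest possible with 2 pairs. Same-numbered libraries did not deviate together (correlation 0.01 over 13566 IDs). The m6A-ORL replicates also differ in RNA type, so this cannot tell whether same-numbered libraries shared more than a number. Peak lists of unknown depth limit every absence reported.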

Other observations

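RPGRIP1L, a ciliary gene on the minus strand whose span lies 103 nt from the RefSeq start of FTO, had 2 peaks in the total-RNA m6A-ORL library, none in the polyA one and none in either MeRIP list. They covered 61 nt each, and the nearer one ended 708 nt before FTO, at rank 98.5% of its list. IRX3, a homeobox gene 161362 nt beyond the 3′ end of FTO, had 0 and 2 peaks in the m6A-ORL libraries, against 3 and 2 in MeRIP. None of the 3 noncoding genes within the FTO span had a peak in any list. LLGL1, a cell polarity gene 15680 nt beyond ALKBH5, had 0 and 1 peaks in the m6A-ORL libraries and none in MeRIP. MYO15A, 4027 nt before ALKBH5, had no same-strand peak in any list.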
